A study of Drosophila melanogaster with 3 samples.

Results

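The genes that encode the machinery of RNA polymerase II transcription were examined for binding by the chromatin protein YL-1 in Drosophila melanogaster embryos. They comprised 66 of 13945 protein-coding genes, chosen by symbol with earlier results of these data known. Of these, 12 encode subunits of RNA polymerase II and 10 encode TBP and the general factors. A further 15 are Taf genes of TFIID and 29 are genes of the Mediator complex. YL-1 was found at the promoters of 50 of these 66 genes, which is 75.8%, whereas 33.4% of all protein-coding genes had a peak by the same rule. Every complex was bound at 7 in 10 or more of its genes: RNA polymerase II at 9 of 12, the general factors at 7 of 10, TFIID at 13 of 15 and Mediator at 21 of 29. These counts are for summits within 250 bp of a start site. Within 100 bp they were 5 for RNA polymerase II, 12 for Mediator and 33 of the 66 in all, where 23.6% of all genes were bound. Taf4 carried the strongest signal of the 66. TfIIB, TfIIFbeta, Taf8 and Cdk8 were among the 16 genes without a peak.

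RNA polymerase II transcribes protein-coding genes, but it cannot find a promoter alone. TBP and the other TFIID subunits recognise the core promoter, TFIIA and TFIIB stabilise that contact, TFIIF and TFIIE bring in and prepare the polymerase, and Mediator links all of these to activators bound elsewhere. Most of the subunits are needed in nearly every cell, and a few have second copies used in the male germ line. YL-1 belongs to Domino and Tip60, remodelling complexes that place the histone variant H2Av in nucleosomes.

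The material was 3 biological replicates of a single group, whole embryos of both sexes collected from 0 to 24 h, from a transgenic line that carries a GFP fusion to the carboxy terminus of YL-1. Chromatin immunoprecipitation used an antibody against GFP and chromatin sonicated to between 200 and 800 bp. All cell types and stages of that day of development were therefore averaged, and the labels give no unlabelled or untreated group. The authors deposited region lists, not reads, so depth is unknown and no comparison between conditions could be made.

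A gene was called bound when the summit of a peak in the list that passed the authors' irreproducible discovery rate (IDR) threshold lay within 250 bp of any of its annotated start sites. The IDR list held 5986 peaks in the dm6 build, and the signal of a peak is the authors' own value, comparable only within a list. For each replicate, the strongest 5986 of its 30000 regions were called top regions, and the signal of a region was divided by the median of the top regions of that replicate. This ratio is the replicate value given below, so 1 means a region of middling strength among the top regions. The top regions of replicates 1, 2 and 3 bound 47, 47 and 49 of the 66 genes, or 72.2% ± 1.75 (SD, n = 3), against 32.1% ± 0.750 of all protein-coding genes. The difference was 38.5, 39.9 and 41.9 percentage points in replicates 1, 2 and 3, with an SD of 1.74. That SD measures how repeatable the calls were for this list, not how far another list of genes would differ. In all 3 replicates together, 38 of the 66 were bound, where 23.9% of all genes were. With 3 replicates of 1 group, no exact two-sided test over replicates can fall below p = 0.25, and none was run.

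**Figure D1:**
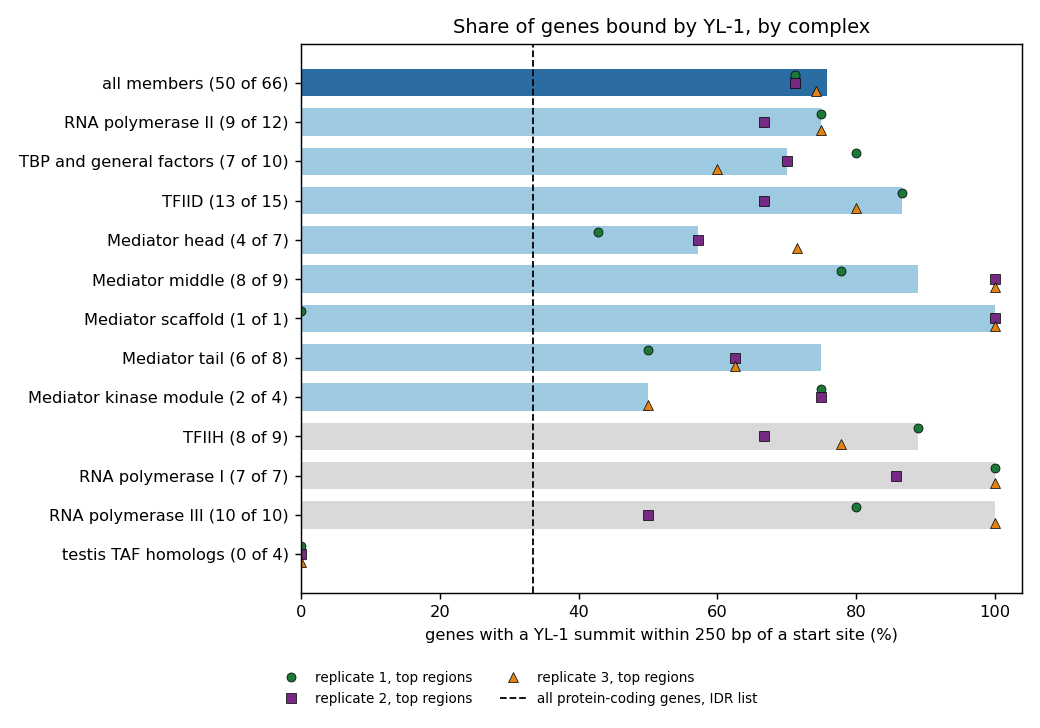
Percentage of genes in each complex with a YL-1 summit within 250 bp of a start site. Bars are the IDR list (counts in the labels), symbols the top regions of each of the 3 replicates, and the dashed line is all protein-coding genes at 33.4%. Blue bars are the 66 genes and their complexes, with Mediator drawn by module, and grey bars related genes. Every blue bar ends to the right of the line, and the head and kinase modules of Mediator are the shortest of them. The testis homologs of TFIID subunits are at 0.

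Among the RNA polymerase II genes, YL-1 was strongest at Polr2F, which encodes a small subunit shared with RNA polymerases I and III. Its signal was 442, rank 422 in the IDR list, with replicate values of 1.91, 1.83 and 2.02. The 3 replicates lay close together and all well above the middle of the top regions. The summit was 5 bp upstream of the start site. The promoter is shown from 250 bases before the start site to 49 after it (chr3R:5371545-5371844, + strand, dm6, RefSeq sequence), so that base 251 is the start site. Capitals in this and the following promoters mark matches to the core-promoter motifs described further on, here a pair of TATA-box letters far upstream of the start site, and the summit falls on base 246.
Polr2F: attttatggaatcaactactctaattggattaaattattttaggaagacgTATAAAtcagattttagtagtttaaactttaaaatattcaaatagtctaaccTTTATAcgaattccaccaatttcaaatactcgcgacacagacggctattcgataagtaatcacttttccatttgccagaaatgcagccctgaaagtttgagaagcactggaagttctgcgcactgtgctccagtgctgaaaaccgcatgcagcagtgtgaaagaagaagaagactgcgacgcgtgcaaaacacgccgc

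The catalytic core of the polymerase was bound. Polr2A, the largest subunit, which carries the active site and the repeated carboxy-terminal tail, had a signal of 358 and replicate values of 1.45, 1.52 and 1.73. Polr2B, the second-largest subunit and partner in the active site, had a signal of 376 with replicate values of 1.02, 1.38 and 2.24. Both were above the median bound gene, but the replicates were close together for Polr2A and widely spread for Polr2B. At Polr2A the stronger summit was 146 bp downstream of the start site and a weaker peak of signal 168 lay 156 bp upstream of it, so that the peaks flanked the start site. The summit at Polr2B was 115 bp upstream, between it and the neighbouring gene 140up.

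Polr2J, which pairs with Polr2C to begin assembly of the enzyme, had a signal of 350 and replicate values of 1.71, 1.35 and 1.5. Polr2C itself had a signal of 247, with values of 0.996, 0.353 and 1.28. Replicate 2 was the exception at Polr2C: its region with a summit in the window ranked 13977, while the strongest region of that replicate that overlapped the IDR peak ranked 5119 with its summit at 251 bp, 1 bp outside the window. The stalk of the polymerase, formed by Polr2D and Polr2G, gave the weakest signals of the bound subunits, 203 and 184. Polr2D had replicate values of 1.07, 0.766 and 0.979, and Polr2G of 0.831, 0.944 and 0.773. Both were top regions in all 3 replicates, although below the median bound gene. The bound subunits had a median signal of 324, 1.29 times the median of 252 over all bound genes.

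The polymerase subunits without an IDR summit in the window were Polr2I, Polr2K and Polr2L. Polr2K and Polr2L are small subunits that RNA polymerases I and III also use, and Polr2I, in yeast, helps the enzyme select the correct nucleotide. All had a region in the longer list called on the pooled libraries, at ranks 13216, 8701 and 12355 of 30000 and at 0.497, 0.714 and 0.525 of the signal of the weakest IDR peak. That list is labelled as peaks and background, so a region in it need not be a peak. None of these subunits was a top region in any replicate, and each had no listed region in 1 of the 3 replicates. The nearest IDR summit to Polr2I lay 740 bp upstream, at the start of su(Hw), that to Polr2K 2346 bp upstream, and that to Polr2L 51494 bp away. Polr2E, Polr2F and Polr2H, also shared subunits, were bound with signals of 209, 442 and 324. Whether sharing with other polymerases goes with the lack of a peak was not tested.

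**Figure D2:**
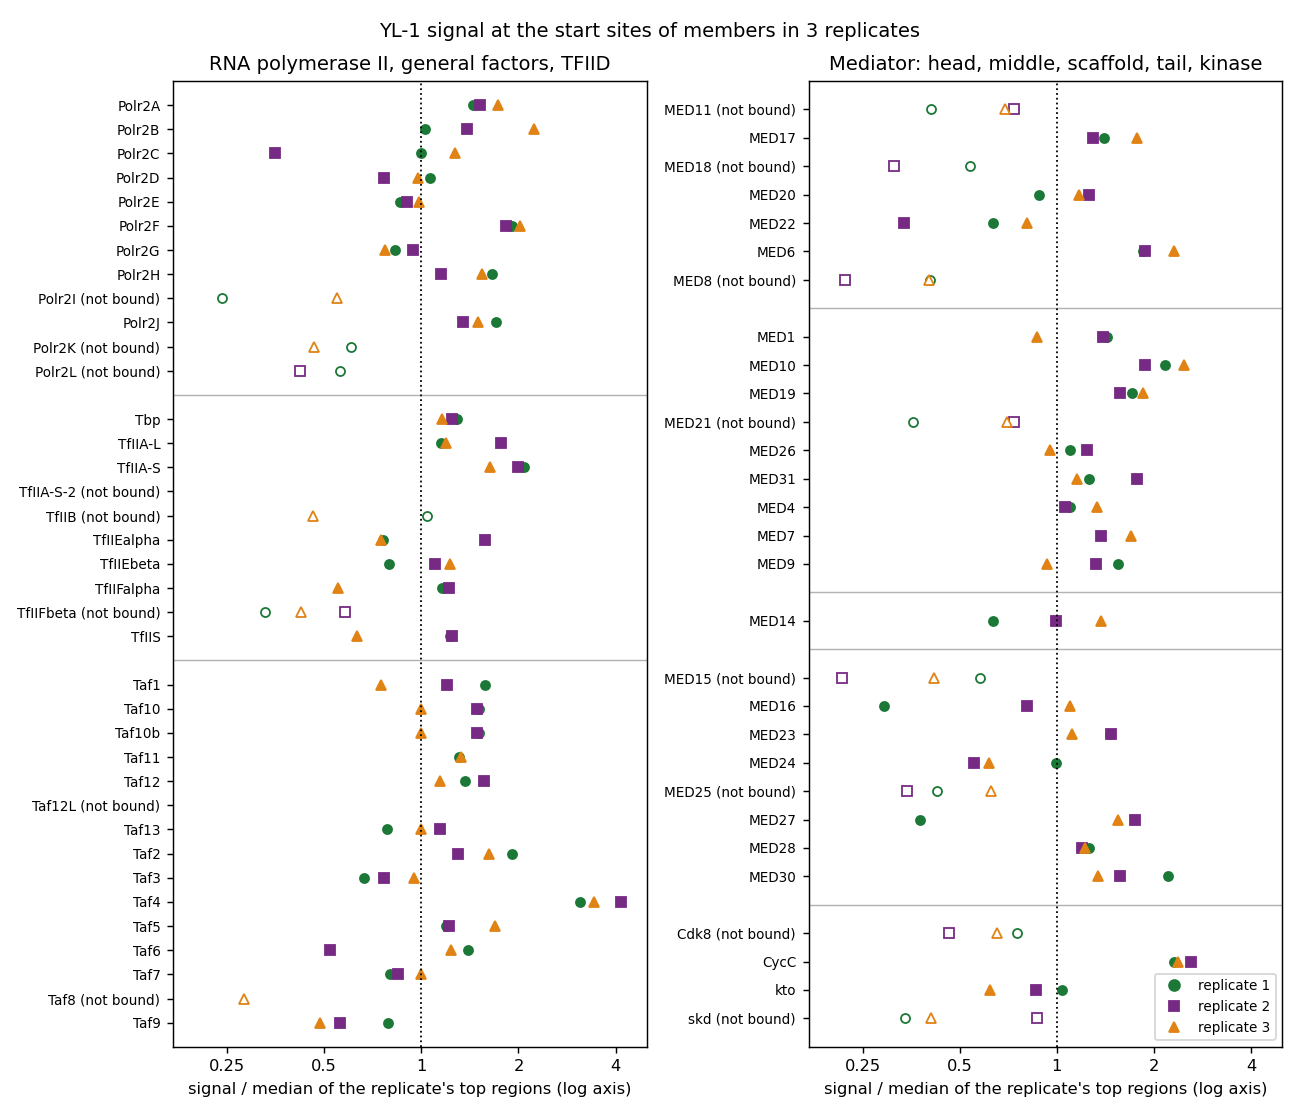
YL-1 signal at the start sites of the 66 genes in each replicate, as the strongest region within 250 bp divided by the median of that replicate's top regions (log axis, dotted line at 1). Filled symbols are genes bound in the IDR list, open symbols genes that were not, and a missing symbol means that the replicate listed no region. Taf4 stands farthest to the right at 3.09 to 4.16, CycC follows at 2.31 to 2.60, and all but 1 of the open symbols lie to the left of 1.

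Of TBP and the general factors, TfIIA-S was bound most strongly. It encodes the small subunit of TFIIA, the factor that holds TBP on DNA. Its signal was 419 and its replicate values were 2.08, 1.99 and 1.63, with the summit 27 bp upstream of the start site. TfIIA-L, the gene of the large TFIIA subunit, followed with a signal of 290 and values of 1.15, 1.77 and 1.19. Its summit lay at the more downstream of its 2 start sites, and with the upstream one alone it was not bound. Tbp, whose product bends the TATA box, had a signal of 276 and replicate values of 1.29, 1.24 and 1.16. Tbp varied little between replicates, and all 3 genes were top regions in each of them.

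A second gene, TfIIA-S-2, encodes another small TFIIA subunit. No region of any list, replicate or pooled, had a summit within 250 bp of its start site, and the nearest IDR summit was 15012 bp away. The promoters of this pair are shown because they are the strongest and the weakest of the general factors (TfIIA-S, chr3R:23891011-23891310, - strand; TfIIA-S-2, chrX:1011594-1011893, - strand; dm6, RefSeq sequence, both written 5′ to 3′ on the strand of the gene). Capitals mark a pair of motif 7 matches in TfIIA-S, the first of them 49 bases before the start site and the second beginning on the start site itself, and the YL-1 summit falls on base 224 between them. TfIIA-S-2 holds no match to be capitalised.
TfIIA-S: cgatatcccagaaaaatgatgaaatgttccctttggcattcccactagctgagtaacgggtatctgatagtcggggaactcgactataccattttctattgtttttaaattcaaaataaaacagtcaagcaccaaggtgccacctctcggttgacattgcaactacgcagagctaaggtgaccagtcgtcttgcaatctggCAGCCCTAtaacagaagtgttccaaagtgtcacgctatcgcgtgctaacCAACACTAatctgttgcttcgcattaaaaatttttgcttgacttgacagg
TfIIA-S-2: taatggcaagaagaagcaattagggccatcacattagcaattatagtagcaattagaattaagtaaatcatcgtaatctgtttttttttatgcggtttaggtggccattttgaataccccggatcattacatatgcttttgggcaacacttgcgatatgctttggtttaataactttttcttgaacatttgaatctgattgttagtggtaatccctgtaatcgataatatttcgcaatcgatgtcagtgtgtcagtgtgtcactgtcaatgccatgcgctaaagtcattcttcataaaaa

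TFIIE and TFIIF are each made from the products of a pair of genes. TFIIE, which recruits the helicase factor TFIIH, was bound at both subunit genes, TfIIEalpha with a signal of 237 and TfIIEbeta with 245. TfIIEalpha had replicate values of 0.761, 1.58 and 0.750, higher in replicate 2 than in the others, and TfIIEbeta of 0.794, 1.1 and 1.23. TFIIF escorts the polymerase to the promoter, and its large subunit gene was the one bound. TfIIFalpha had a signal of 203 and replicate values of 1.16, 1.22 and 0.552. Its summit lay 170 bp upstream, nearer to the start site of CG1024 on the opposite strand, so the peak could belong to that gene. Replicate 3 ranked the region of TfIIFalpha 7051, outside the top regions. TfIIFbeta had values of 0.328, 0.581 and 0.423 and a pooled rank of 8134. The replicates of both genes overlapped only through replicate 3 of TfIIFalpha. TfIIS, which rescues arrested polymerase during elongation and belongs here by its symbol, had a signal of 217 and replicate values of 1.23, 1.24 and 0.631.

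TfIIB, which bridges TBP and the polymerase, was not bound in the IDR list but lay close to its limit. Its region in the pooled list ranked 6626, at 0.915 of the signal of the weakest IDR peak. In replicate 1 it was a top region at rank 2787 with a value of 1.04, in replicate 3 it ranked 8741, and replicate 2 listed no region in the window. The 3 replicates thus gave 3 different answers for this gene. An IDR summit lay 383 bp upstream of TfIIB, next to Bug22, outside the 250 bp window but inside a window of 500 bp.

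Within TFIID, Taf4 stood apart. Its product is the scaffold of the complex, pairing with Taf12 through a histone fold. Its signal was 817, rank 41 of 5986, or the 99.2 percentile of all bound genes, with replicate values of 3.09, 4.16 and 3.44. It was the highest of the 66 genes in every replicate, and the lowest replicate value of Taf4 was above the highest value of any other member. The summit was 34 bp upstream of the nearest of its 3 start sites, which is not the most upstream of them. A second peak of signal 366 lay 166 bp downstream of that start site. No other protein-coding gene started within 250 bp of the summit. With the most upstream start site alone, Taf4 was not bound. The promoter at the start site nearest the summit (chr3L:16113540-16113839, + strand, dm6, RefSeq sequence) is shown as that of the most strongly bound member. None of its letters is capitalised, and the summit falls on base 217.
Taf4: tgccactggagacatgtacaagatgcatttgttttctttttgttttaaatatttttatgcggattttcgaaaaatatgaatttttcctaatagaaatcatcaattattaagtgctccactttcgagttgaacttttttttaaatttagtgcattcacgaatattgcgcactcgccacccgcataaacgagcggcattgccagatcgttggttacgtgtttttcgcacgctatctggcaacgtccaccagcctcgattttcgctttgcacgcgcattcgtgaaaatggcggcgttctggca

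Taf2, whose product contacts the initiator, followed with a signal of 375 and replicate values of 1.91, 1.30 and 1.62. Taf11, whose histone fold pairs with that of Taf13, had a signal of 317, with values of 1.31 in replicate 1 and 1.33 in replicate 3. Replicate 2 had no summit in the window of Taf11, because the region there, at rank 1135, had its summit 255 bp upstream. That peak lay 239 bp upstream of Taf11 in the IDR list and nearer to und, on the opposite strand. Taf1, the largest subunit, had a signal of 260 and values of 1.57, 1.20 and 0.751. Replicate 1 was high and replicate 3 low for Taf1, yet all were top regions.

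The weakest bound Taf genes were Taf9 and Taf3. Taf9, the histone-fold partner of Taf6, had the lowest signal of all 50 bound members, 141, with replicate values of 0.788, 0.559 and 0.486. It was a top region in replicate 1 alone. Taf3, whose mammalian counterpart reads methylated histone H3, had a signal of 187 and values of 0.663, 0.765 and 0.947, and lay in the top regions of all 3 replicates. Taf6 had a signal of 252 and values of 1.40, 0.520 and 1.24, and replicate 2 placed its region in the window at rank 8128. In each replicate the strongest region that overlapped the IDR peak of Taf6 had its summit outside the window, from 267 to 348 bp upstream on the side of the neighbouring gene ash1.

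Taf8 and Taf12L were the Taf genes without an IDR summit. Taf8, which enters TFIID as a pair with Taf10, had a region in the pooled list at rank 20364 and a listed region in replicate 3 alone, with a value of 0.282. Its own partner gene Taf10 was bound, by a peak of signal 286 with replicate values of 1.5, 1.49 and 0.994. That peak is also that of Taf10b, a second copy transcribed in the opposite direction, so the 50 bound genes have 49 distinct strongest peaks between them. Taf12L, a second copy of Taf12, had no region in any list, and the nearest IDR summit was 108673 bp away.

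Paralogs of TFIID and TFIIA genes were compared with the genes they resemble. The testis homologs nht, can, mia and sa resemble Taf4, Taf5, Taf6 and Taf8, and they act in spermatocytes in Drosophila. None of the 4 was bound. Taf4 with its signal of 817, Taf5 with 316 and Taf6 with 252 were bound, while nht, can and sa had no region in any list. Taf8, the gene that sa resembles, was not bound either, so the calls did not differ in that pair. Of the homologs, only mia had listed regions, with replicate values of 0.552, 0.427 and 0.396 and a pooled rank of 9845. Replicate 2 of mia and of Taf6, at 0.427 and 0.520, lay close together. Taf12 had replicate values of 1.36, 1.56 and 1.14 where Taf12L had no region. Not every second copy followed this pattern: Taf10b shared the peak of Taf10, and the TBP-related genes Trf and Trf2 were both bound, Trf with a signal of 257 through a peak it shares with MED20 and Trf2 with 157.

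**Figure D3:**
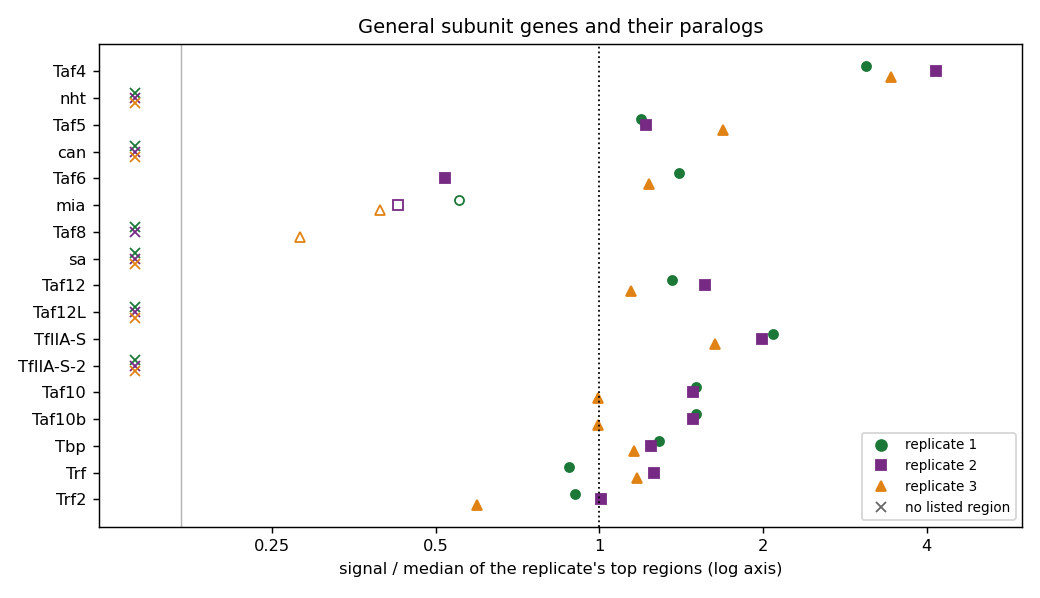
Replicate values of general subunit genes and of their paralogs, as signal divided by the median of that replicate's top regions (log axis, dotted line at 1). Filled symbols are genes bound in the IDR list, open symbols are not, and crosses at the left edge mark replicates with no listed region. Crosses fill the rows of nht, can, sa, Taf12L and TfIIA-S-2, whereas Taf4, Taf12 and TfIIA-S lie to the right of 1 in all 3 replicates.

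In Mediator, the share of bound genes differed by module: 4 of 7 head genes, 8 of 9 middle genes, the scaffold gene MED14, 6 of 8 tail genes and 2 of 4 genes of the kinase module. In replicates 1, 2 and 3, 3, 4 and 5 head genes and 7, 9 and 9 middle genes were bound, 57.1% ± 14.3 and 92.6% ± 12.8 (SD, n = 3), and the middle share was the higher in every replicate. Replicate 1 bound 17 of the 29 Mediator genes and the others 22 each. The difference between modules, which hold few genes, was not tested.

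The head module contacts the polymerase. MED6 was its strongest gene, with a signal of 461, rank 362, and replicate values of 1.84, 1.88 and 2.31, and its summit lay 2 bp upstream of the nearest of its start sites. MED17, the core of the head, had a signal of 350 and values of 1.40, 1.29 and 1.77. MED20 had a signal of 257, with values of 0.879, 1.26 and 1.17. The first of these was high and the last near the median bound gene. MED22 was near the bottom of the IDR list with a signal of 148, and its values of 0.635, 0.336 and 0.807 made it a top region in replicate 3 alone. The promoter of MED6 (chr3R:9767766-9768065, - strand, dm6, RefSeq sequence) holds no capitalised motif, and the summit falls on base 249.
MED6: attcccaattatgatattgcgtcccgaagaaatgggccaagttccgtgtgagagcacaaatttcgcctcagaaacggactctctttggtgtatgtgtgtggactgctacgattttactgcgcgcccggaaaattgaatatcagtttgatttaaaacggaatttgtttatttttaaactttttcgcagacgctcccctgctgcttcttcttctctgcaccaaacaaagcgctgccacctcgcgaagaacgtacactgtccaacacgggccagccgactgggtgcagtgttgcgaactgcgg

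The unbound head genes were MED11, MED18 and MED8, and they were not equally far from the IDR limit. MED11 had replicate values of 0.408, 0.737 and 0.690, was a top region in replicates 2 and 3, and ranked 6254 in the pooled list at 0.966 of the weakest IDR signal. MED18 had values of 0.536 and 0.313 in replicates 1 and 2 and none in replicate 3. MED8 had values of 0.404, 0.221 and 0.402 and an IDR summit 670 bp upstream of its start site. MED11 was thus a near miss and the others lay at 0.504 and 0.434 of the weakest IDR signal.

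The middle module was the most widely bound of the modules with several genes. MED10, one of its core subunits, had a signal of 519, rank 221, and replicate values of 2.16, 1.88 and 2.47. The summit lay 18 bp upstream of the start site, in a peak shared with PDCD-5. MED19 had a signal of 399 with values of 1.71, 1.57 and 1.85, and no other gene in its window. Both were above the middle of the top regions in all 3 replicates. MED7 had a signal of 327 and values of 1.37 and 1.69 in replicates 2 and 3, while the region of replicate 1 that overlapped the IDR peak, at rank 2689, had its summit 289 bp upstream. The IDR summit itself lay 232 bp upstream, nearer to Cap-H2. The lowest signals among bound middle genes were 249 at MED26 and 264 at MED9, so the whole range of the module began near the median bound gene.

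The promoter of MED10 (chr3L:16231834-16232133, + strand, dm6, RefSeq sequence) is shown as one with several motifs. Capitals mark, from the left, the motif 6 core, TATA-box letters and, 68 bases before the start site, the motif 1 core on the reverse strand. The summit falls on base 233.
MED10: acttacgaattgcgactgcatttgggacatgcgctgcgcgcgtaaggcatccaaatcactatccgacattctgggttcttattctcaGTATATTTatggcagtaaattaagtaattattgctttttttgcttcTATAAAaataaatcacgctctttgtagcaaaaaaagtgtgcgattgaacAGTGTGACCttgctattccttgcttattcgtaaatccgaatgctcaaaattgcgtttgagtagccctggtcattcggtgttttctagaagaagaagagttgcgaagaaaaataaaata

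The unbound middle gene was MED21, which joins MED7 in the hinge of the complex. Its replicate values were 0.358, 0.734 and 0.699, so that it was a top region in replicates 2 and 3 but ranked 12822 in replicate 1. Its pooled rank was 7493. MED14, the backbone that joins the modules, had a signal of 212 and replicate values of 0.635, 0.992 and 1.37. It fell just outside the top regions of replicate 1, at rank 6176. Its summit lay 149 bp downstream of the start site, beyond the stretch of promoter shown (chr3L:592996-593295, + strand, dm6, RefSeq sequence), whose GC content of 27.3% was the lowest of the 9 printed. Its motif 6 core is capitalised.
MED14: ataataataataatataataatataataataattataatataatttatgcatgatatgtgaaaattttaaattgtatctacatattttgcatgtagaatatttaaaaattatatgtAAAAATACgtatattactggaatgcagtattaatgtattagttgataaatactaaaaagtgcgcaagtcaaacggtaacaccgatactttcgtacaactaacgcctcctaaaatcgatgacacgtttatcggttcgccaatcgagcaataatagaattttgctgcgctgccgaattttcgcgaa

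The tail module receives signals from activators. MED30 was its strongest gene with a signal of 377 and replicate values of 2.21, 1.56 and 1.34, followed by MED27 with 300 and MED23 with 297. MED27 varied between replicates, with values of 0.375, 1.74 and 1.55. In replicate 1 the strongest region over the IDR peak of MED27 ranked 3911 with its summit 365 bp upstream, and the region inside the window ranked 12088. MED16 and MED24 had the lowest signals of the bound tail genes, 180 and 165. MED16 had values of 0.291, 0.811 and 1.1 and missed the top regions of replicate 1, and MED24 had values of 0.991, 0.554 and 0.617 and reached them in replicate 1 alone. The promoter of MED30 (chr3L:654040-654339, - strand, dm6, RefSeq sequence) carries an E-box 55 bases before the start site, and the summit, on base 110, lies 141 bp upstream and nearer to Rev1 on the other strand.
MED30: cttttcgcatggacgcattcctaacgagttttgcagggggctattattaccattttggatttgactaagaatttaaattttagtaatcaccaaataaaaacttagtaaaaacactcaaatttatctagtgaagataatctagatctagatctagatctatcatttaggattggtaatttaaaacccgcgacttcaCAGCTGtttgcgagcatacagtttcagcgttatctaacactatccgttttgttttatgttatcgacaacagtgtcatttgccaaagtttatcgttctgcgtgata

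MED15 and MED25, both targets of activators in other species, were the unbound tail genes. MED15 was the only member with regions in replicate lists, at values of 0.578, 0.215 and 0.417, but none in the pooled list. An IDR summit lay 560 bp upstream of it. MED25 had values of 0.425, 0.343 and 0.624, a pooled rank of 7434 and an IDR summit 400 bp upstream, at Hs6st. The symbol MED29 is carried by no gene here. The Drosophila gene for that subunit is ix, added after the data were seen, and it too had no IDR summit within 250 bp, with replicate values of 0.535, 0.225 and 0.617.

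The kinase module, which docks on Mediator reversibly, held both strong and unbound genes. CycC, the cyclin of the module, had a signal of 550, second among the 66 genes at rank 186, and replicate values of 2.31, 2.60 and 2.37. Its kinase, Cdk8, was not bound in the IDR list and had replicate values of 0.750, 0.464 and 0.650. The signal at CycC was 3.07, 5.61 and 3.64 times that at Cdk8 in the 3 replicates. Cdk8 was a top region in replicates 1 and 3 and ranked 6657 in the pooled list, at 0.911 of the weakest IDR signal. kto, which encodes the MED12 subunit, had a signal of 195 and values of 1.04, 0.860 and 0.622, and skd, the MED13 gene, had values of 0.338, 0.866 and 0.406. skd was a top region in replicate 2 alone, and an IDR summit lay 627 bp upstream of it near Pdss2. The CycC peak summit lay 131 bp upstream and nearer to UQCR-C1, on base 120 of the promoter (chr3R:14890156-14890455, - strand, dm6, RefSeq sequence), where an E-box is capitalised 19 bases before the start site.
CycC: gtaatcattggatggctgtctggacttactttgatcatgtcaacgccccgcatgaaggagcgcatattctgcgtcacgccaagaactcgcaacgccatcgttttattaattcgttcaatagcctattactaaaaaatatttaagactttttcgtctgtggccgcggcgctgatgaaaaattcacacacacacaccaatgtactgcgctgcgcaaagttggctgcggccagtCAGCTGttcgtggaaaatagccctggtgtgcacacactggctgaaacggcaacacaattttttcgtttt

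Over all 50 bound members the median signal was 281 and the range 141 to 817. The median was 1.12 times that of all 4655 bound genes, and 1.09, 1.11 and 1.04 times in replicates 1, 2 and 3 (1.08 ± 0.0381, SD, n = 3). Of the 50, 32 were above the median bound gene, 13 were in the top 25% of bound genes and 6 in the bottom 25%. These medians cover only genes that passed the IDR threshold, so weaker regions are left out of both sides. Over all regions of the pooled list the ratio was 1.38. By complex, the medians in the IDR list were 324 for RNA polymerase II, 286 for TFIID and 286 for Mediator. They are 1.29, 1.14 and 1.14 times the median bound gene. The general factors were below it, with a median of 245, 0.973 times.

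The call was repeated in the top regions of all 3 replicates for 38 bound members, of 2 replicates for 9 and of 1 replicate for 3. Of the 16 unbound members, 13 had a region in the pooled list, so that 63 of 66 members had one, where 52.2% of all genes did. Because that list includes background, such a region need not be a YL-1 peak. A top region in 1 or more replicates was present at 5 of the 16, namely TfIIB, MED11, MED21, Cdk8 and skd. Only TfIIA-S-2 and Taf12L had no region in any list. An IDR summit lay between 251 and 1000 bp from a start site at 7 of the 16 and farther at 9. Across bound members, replicate signals ranked with Spearman coefficients of 0.648, 0.507 and 0.546 for the 3 pairs of replicates over 48 to 49 genes, and of 0.633, 0.676 and 0.653 over all bound genes. These describe genes of the same libraries and carry no test.

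The rule kept summits within 250 bp of a start site. The median distance at bound members was 64.5 bp, against 68 bp for all bound genes, and 32 of 50 were within 100 bp, as were 3005 of 4655 bound genes in all. The summit was upstream of the start site at 34 members and downstream at 16, and at 2817 and 1838 of all bound genes. The members were thus placed much like other bound genes. By complex the median distance was 114 bp for RNA polymerase II, 27 bp for the general factors, 63 bp for TFIID and 66 bp for Mediator. Because the deposited summit was the middle of the region at 29 of the 50, and at 70.0% of IDR peaks, a distance is known less finely than its digits. A further IDR peak lay in the window at 8 of 50 members and at 906 of 4655 bound genes.

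Many peaks could belong to a neighbour as well. At 29 of 50 bound members, or 58.0%, the summit was also within 250 bp of the start site of another protein-coding gene, compared with 42.9% for all bound genes. In the replicates the share was 53.9% ± 1.27 (SD, n = 3). All 29 had such a gene on the opposite strand, and 4 of them, Polr2C, Polr2D, MED31 and MED9, had more than 1 gene in the window. The share was 5 of 9 for RNA polymerase II, 1 of 7 for the general factors, 9 of 13 for TFIID and 14 of 21 for Mediator. At 15 members the summit was nearer to the start site of the neighbour. When each summit was given to its nearest start site alone, 38 of 66 members remained bound, and 28.1% of all genes were.

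**Figure D4:**
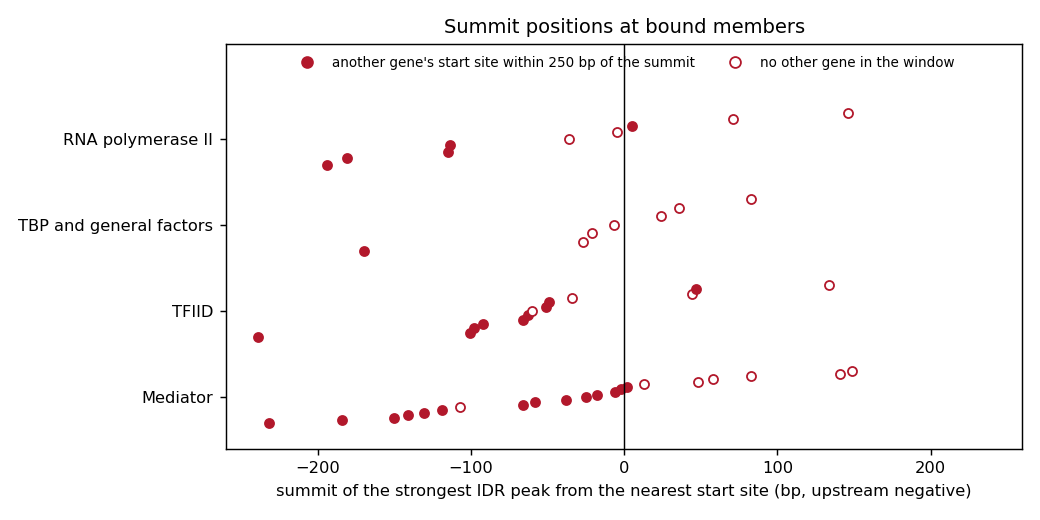
Distance of the YL-1 summit from the nearest start site for each of the 50 bound genes, by complex (bp, upstream negative). Filled points have another protein-coding gene's start site within 250 bp of the summit and open points do not, and the vertical offset only separates points. Filled points lie mostly upstream, and the general factors have 1 filled point among 7.

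The members had short genes with close neighbours. An opposite-strand gene started within 500 bp upstream of 37 of the 66, and of 3687 of all 13945 genes. With such a head-to-head neighbour, 30 of 37 members were bound, 81.1%, as were 65.6% of all genes with one. Without one, 20 of 29 members were bound, 69.0%, where the share of all genes was 21.8%. The top regions gave 69.0% for the members without a neighbour in each replicate, and 21% ± 0.710 (SD, n = 3) for all genes without one. Binding at members was frequent with or without a neighbour, and the gap to all genes was wider where there was none. This split was chosen after the values were seen, and the difference was not tested. The median length was 1391 bp for bound members and 1057 bp for unbound ones, compared with 2765 bp and 1888 bp over all bound and unbound genes. A single annotated start site was found for 58 of the 66, 87.9%, and for 73.5% of all genes.

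Core-promoter motifs were searched on both strands from 250 bases before to 50 bases from the start site on, by exact letters: the DRE (TATCGATA), the motif 1 core (GGTCACACT), the E-box of motif 5 (CAGCTG), the motif 6 core (GTATNTTT), motif 7 (CANCNCTA), the TATA box (TATAAA), the initiator (TCAGT) and the GAGA element (GAGAG). The letters of these motifs can overlap in one place, and the initiator and GAGA matches are not capitalised. The DRE is bound in Drosophila by DREF and, with motifs 1, 6 and 7, is common at broadly active promoters. It was present at 13 of 66 members, 19.7%, and at 9.32% of all genes. The motif 1 core was present at 22.7% of members and 6.22% of all genes, and the motif 6 core at 33.3% and 14.8%. Motif 7 was found at 25.8% and 15.9%. These 4 motifs were found at a larger share of members than of all genes, while the TATA box was at 47.0% and 45.5%. Most members were bound, and set against all bound genes the bound members were close for the DRE, with 9 of 50 and 18.8%, and for motif 7, with 14 of 50 and 26.8%. The motif 1 core was at 10 of the 50 and 14.9% of all bound genes, and the motif 6 core at 15 of the 50 and 20.9%. The initiator was found at 33.3% of members and 51.9% of all genes, the GAGA element at 21.2% and 30.1%, and the E-box at 15.2% and 18.1%.

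The DRE and the motif 1 core were not more frequent at bound members. Among the 25 members with a DRE or a motif 1 core, 18 were bound, 72.0%, and among the 41 with neither, 32 were bound, 78.0%. Over all protein-coding genes the shares were 71.6% and 26.8%. The unbound Polr2L, MED18, MED8 and MED25 held a DRE, and the unbound Polr2I, Polr2L, MED11, MED8 and MED15 a motif 1 core. Taf4 and MED6, among the most strongly bound, held neither. Of the other motifs, the TATA box was found at 21 of 50 bound and 10 of 16 unbound members, the motif 6 core at 15 and 7, and motif 7 at 14 and 3. None of these differences was tested. By complex the DRE was found at 2 of 12 polymerase genes, 1 of 10 general factors (Tbp), 2 of 15 Taf genes and 8 of 29 Mediator genes. A match is a run of letters and not a measured site.

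Genes of neighbouring machines were read by the same rule. TFIIH, which opens the promoter and phosphorylates the polymerase tail, was bound at 8 of 9 genes, with Ssl1 strongest at a signal of 742 through a peak shared with Chro. The gene mrn, which encodes a further TFIIH subunit and was added after the data were seen, was bound too, with a signal of 270. CycH was the exception, with replicate values of 0.555, 0.584 and 0.564. RNA polymerase I genes were bound at 7 of 7, led by Polr1E with a signal of 336, and RNA polymerase III genes at 10 of 10, led by Polr3E with 401. The replicates gave 8, 5 and 10 of the 10 RNA polymerase III genes, so the last count rests on weaker regions. Bdp1 and Brf of TFIIIB were both bound, Bdp1 with a signal of 470. At Ssl1, mrn, Polr3E, Bdp1 and Brf the summit was nearer to the start site of a neighbouring gene. These peaks could therefore belong to the neighbours. At Polr3E the summit lay 246 bp upstream, close to the edge of the window. The SAGA coactivator, which shares Taf subunits with TFIID, was bound at 9 of 14 genes, with Gcn5, its acetyltransferase, strongest at 549.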

How the data were processed

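YL-1-GFP was mapped by chromatin immunoprecipitation in 3 replicates of 1 group of embryos. Per the labels, the authors deposited narrowPeak region lists in dm6 and dm3, and the dm6 lists were analysed. The signal value and the −log10 q-value of each region, and its summit offset, are the authors' own, as deposited, made against control libraries that were not analysed here. No label or header names the aligner or peak caller, so how signal was scaled is unknown. No list gives read counts, so depth is unknown.

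Genes were those of Ensembl 115 on Release 6, the dm6 assembly, with sequence from its RefSeq copy, where all 66 genes had the same start and end. The members and lists were chosen with earlier results of these data known, so counts and medians carry no test of the list. Named genes are the 3 strongest and 2 weakest of each complex or module, every unbound gene, genes bound but not top in all 3 replicates, 7 catalytic or scaffold genes and the strongest of each related list. Other members, neighbours and paralogs were named after their values were seen, and the splits by head-to-head neighbour and by motif were chosen then too. Mediator modules follow the yeast and mammalian complex. The promoter of 1 further unbound gene is not reported here. The window, overlap and motif steps were tested on simulated data. Other windows, lists and start-site rules were tried. Python 3.11.15, numpy 2.4.6, scipy 1.17.1 and matplotlib 3.10.9 were used.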

Additional observations from a re-analysis of the deposited data

How the results depend on the processing

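Of 109 values under other settings for 16 results, 90 stayed within set limits. The limit was 1.5 times for counts and the spread of the replicates for medians and the shared share. For motif shares, which have no replicates, it was the 95% interval of the share over members. With a 100 bp window, 33 of 66 members were bound (5 for RNA polymerase II and 12 for Mediator), where 23.6% of all genes were. That window also gave a median distance of 38 bp, which the window itself limits, and 39.4% of bound members with a shared peak. The shared share was 65.4% at 500 bp, 75.4% at 1000 bp, 49.2% in the pooled list and 53.9% in the top regions, and 53.1% to 54.3% without 1 replicate. These shares have no value for all bound genes beside them, so they do not compare members with other genes. The median signal relative to all bound genes was 1.05 at 1000 bp, 1.38 in the pooled list and 1.06 to 1.1 without 1 replicate. The median distance was 83 bp at 1000 bp and 56 to 63 bp without 1 replicate. The share of members with a GAGA element was 7.58% in a window of 100 bp each side of the start site, which is shorter. The count of bound members ranged from 40 to 44 without 1 replicate, where a gene had to be in the top regions of both others. It ranged from 36 to 63 under the remaining settings. At 500 bp 52 members and 37.6% of all genes were bound, and at 1000 bp 57 members and 40.8%. The count of 63 is that of the pooled list, where the share of all genes was 52.2%. Where no share of all genes is given, a count does not show how members compare with them. With the most upstream start site alone, 46 of 66 members were bound, and Taf4, TfIIA-L, MED6 and MED26 no longer were. Without the copies Taf10b and Taf12L, 49 of 64 members were bound, where 33.4% of all genes were. No paired analysis was possible because the series has 1 group. Unknown depth limits the reading of absent regions.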
